A study of Homo sapiens with 6 samples.

Results

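The Wnt pathway was followed through 50 of the 20503 genes that could be named on the arrays. The genes were taken by symbol, through the RefSeq accession of each probe: all Wnt ligands (WNT), Frizzled receptors (FZD) and secreted Frizzled-related proteins (SFRP), with CTNNB1, APC, AXIN1, AXIN2, GSK3B, LEF1, TCF7, TCF7L1, TCF7L2, NKD1, NKD2, RNF43, ZNRF3, LGR4, LGR5, WIF1 and PORCN. They were measured by 62 probes, and 35 of the 50 genes had a probe that could be tested, compared with 16601 of the 20503 genes of the whole array. The DKK antagonists were not among them.

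RNA of A673 cells, an Ewing sarcoma cell line, was hybridised to 6 Agilent arrays in 1 colour (Cy3) to ask which genes respond to the propeptide of lysyl oxidase (LOX-PP), the part of the LOX protein that is cleaved off before the enzyme becomes active. The 3 control arrays held A673/TR/empty cells and the other 3 held A673/TR/LOX-PP cells. Cells of both groups carried the tetracycline repressor (TR) and a lentiviral vector, which held the LOX-PP cDNA under doxycycline control in the LOX-PP cells and no cDNA in the control cells. LOX-PP cells were kept for 72 h in doxycycline, which the sample labels give at 1 µM. Each of the 6 samples carries the same treatment text, but the source names give it for the LOX-PP cells alone, so whether the control cells received doxycycline is not settled. Both lines were selected with zeocin, and the sources used here do not state how many clones were on the arrays, so that a difference between clones and an effect of LOX-PP cannot be told apart. The samples of each group are described as separate experiments.

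Between 56.9% and 74.8% of the gene spots of an array were well above background, no gene spot was saturated, and the correlation between arrays ranged from 0.934 to 0.994. Replicate 1 of LOX-PP was on another slide and in another scan than the remaining 5 arrays. The single LOX probe was not higher on the arrays labelled LOX-PP (change -0.95, adjusted p = 0.217), and the files do not give its position relative to the propeptide cDNA, so all directions below rest on the labels. All 12 Ewing sarcoma line markers examined, CD99, NR0B1 and NKX2-2 among them, were well above background on all 6 arrays, and none passed the threshold. Their mean log2 level ranged from 3.22 to 3.34 on the control arrays and from 3.37 to 3.57 on the LOX-PP arrays. Of 18 markers of other cell types, ITGAM (haematopoietic, log2 change 1.19) and FAP (fibroblast, 3.52) were higher on the LOX-PP arrays and LUM (fibroblast, -2.42) was lower. These were 1 of 6 tested haematopoietic probes and 2 of 6 tested fibroblast probes, with 0 of 3 tested epithelial probes, compared with 5.66% of all tested probes. The mean log2 level of the 6 fibroblast markers ranged from -0.91 to -0.82 on the control arrays and from -1.06 to -0.23 on the LOX-PP arrays, that of the 6 haematopoietic markers from -3.04 to -2.50 and from -2.67 to -1.83, and that of the 6 epithelial markers, of which CDH1 and KRT5 were not well above background on any array, from -4.71 to -4.02 and from -4.72 to -3.64. The part of these markers in the results below was not tested.

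Wnt proteins are secreted, lipid-modified signals that bind a Frizzled receptor together with an LRP co-receptor. In the canonical branch this stops a complex of APC, AXIN and GSK3B from marking beta-catenin for destruction, so that beta-catenin enters the nucleus and binds TCF/LEF factors to activate target genes. Some of these targets (AXIN2, LEF1, NKD1, RNF43, ZNRF3, LGR5) are themselves parts or brakes of the pathway. Other Wnt proteins, WNT5A and WNT11 among them, are best known for signalling without beta-catenin, through planar cell polarity and calcium.

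The promoters of WNT6 and WNT10A, the ligands with the largest rises in signal, and of LEF1, the TCF/LEF factor with the largest fall, are shown as context for the values that follow. WNT6 and WNT10A are neighbouring genes, and their promoters lie at chr2:218859555-218859854 and chr2:218880602-218880901 on the plus strand. That of LEF1 lies at chr4:108166252-108166551 on the minus strand. The sequences and positions are from RefSeq, build GRCh38.p14, with CpG dinucleotides, the main target of DNA methylation, in capitals. They run 5′ to 3′ from 250 bases before the start taken for each gene to 50 bases after it. Whether this is the main start of the gene was not examined, so the LEF1 window may not be its main promoter.
WNT6: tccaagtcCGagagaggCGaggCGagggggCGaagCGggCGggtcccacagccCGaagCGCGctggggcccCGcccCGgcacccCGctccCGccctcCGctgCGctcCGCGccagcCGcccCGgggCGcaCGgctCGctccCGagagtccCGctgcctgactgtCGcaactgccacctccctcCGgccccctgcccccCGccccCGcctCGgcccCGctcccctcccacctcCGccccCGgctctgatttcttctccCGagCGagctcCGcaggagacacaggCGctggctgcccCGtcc
WNT10A: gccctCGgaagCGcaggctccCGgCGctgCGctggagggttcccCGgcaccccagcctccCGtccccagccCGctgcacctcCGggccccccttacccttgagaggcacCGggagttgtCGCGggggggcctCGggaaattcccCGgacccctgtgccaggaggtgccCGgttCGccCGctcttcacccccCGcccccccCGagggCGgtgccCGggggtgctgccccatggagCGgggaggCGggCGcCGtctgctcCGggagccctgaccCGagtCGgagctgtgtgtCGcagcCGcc
LEF1: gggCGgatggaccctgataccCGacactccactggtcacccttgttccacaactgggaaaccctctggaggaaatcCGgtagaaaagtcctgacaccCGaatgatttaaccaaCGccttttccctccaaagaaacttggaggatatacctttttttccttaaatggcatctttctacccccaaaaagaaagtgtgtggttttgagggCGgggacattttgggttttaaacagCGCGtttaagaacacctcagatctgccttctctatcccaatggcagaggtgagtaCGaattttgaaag
The WNT6 promoter had 37 CpG and a GC content of 78.0%, and that of WNT10A had 30 CpG and 76.7%. The LEF1 window had 9 CpG and 47.0%. The median over the 37 of 50 members with a promoter in the table was 30 CpG and 69.7% GC, compared with 14 CpG and 58.3% over all 27305 promoters. The TCF/LEF core motif CTTTGA, searched on both strands, was in 13.1% of all promoters and in 0 of the 37 member promoters. The tandem GGAAGGAA, an ETS-type repeat of the kind that EWS/FLI1 is known to bind, was in 3.58% of all promoters and likewise in 0 of 37. No match means only that these letters were not in these windows, and motif and promoter matches were not related to the signal by any test.

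Detection differed by role. Counting the brightest probe of each gene, 29 of the 50 genes were well above background on all 6 arrays, 14 on some and 7 on none. All 5 genes of beta-catenin and its destruction complex, all 4 TCF/LEF factors, PORCN, the acyltransferase that lipid-modifies Wnt proteins, and 9 of the 10 Frizzled receptors were well above background on all 6 arrays, FZD10 being the exception with 1 LOX-PP array. Of the 19 ligands only 6 were (WNT3, WNT3A, WNT5A, WNT6, WNT10A and WNT10B), 9 were on some arrays, and WNT2, WNT7A, WNT8A and WNT16 were on none. Of the secreted antagonists, which bind Wnt proteins outside the cell, SFRP2 was on all arrays and SFRP1 on some, whereas SFRP4, SFRP5 and WIF1 were on none.

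Levels below are log2 signals over the 75th percentile of the array, and levels of different probes are not comparable with each other. A probe entered the test if it was well above background on 3 or more of the 6 arrays. The test was limma at a Benjamini-Hochberg adjusted p under 0.05, adjusted over all 32647 such probes. Changes are LOX-PP minus control on the log2 scale, relative to the median change of all tested probes, which was 0.13 (-0.03 under quantile normalization). The test itself was on the difference before this median was subtracted.

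Of the 42 tested member probes, 3 (7.14%) passed the threshold, for SFRP1, WNT6 and FZD3, compared with 5.66% of all tested probes. SFRP1 and WNT6 were higher on the LOX-PP arrays, where 3.31% of all tested probes were higher, and FZD3 was lower, where 2.36% were lower. The share of members called was therefore close to that of the array as a whole. The groups did not overlap for 20 of the 42 probes (47.6%), 12 higher and 8 lower, compared with 29.5% of all tested probes. Among probes well above background on all 6 arrays, which none entered through the group where it was high, the groups did not overlap for 16 of 34 member probes (47.1%) and for 31.3% of all 24720 probes. The median change of the 42 probes was 0.20, with 24 above and 18 below the median of all probes.

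**Figure D1:**
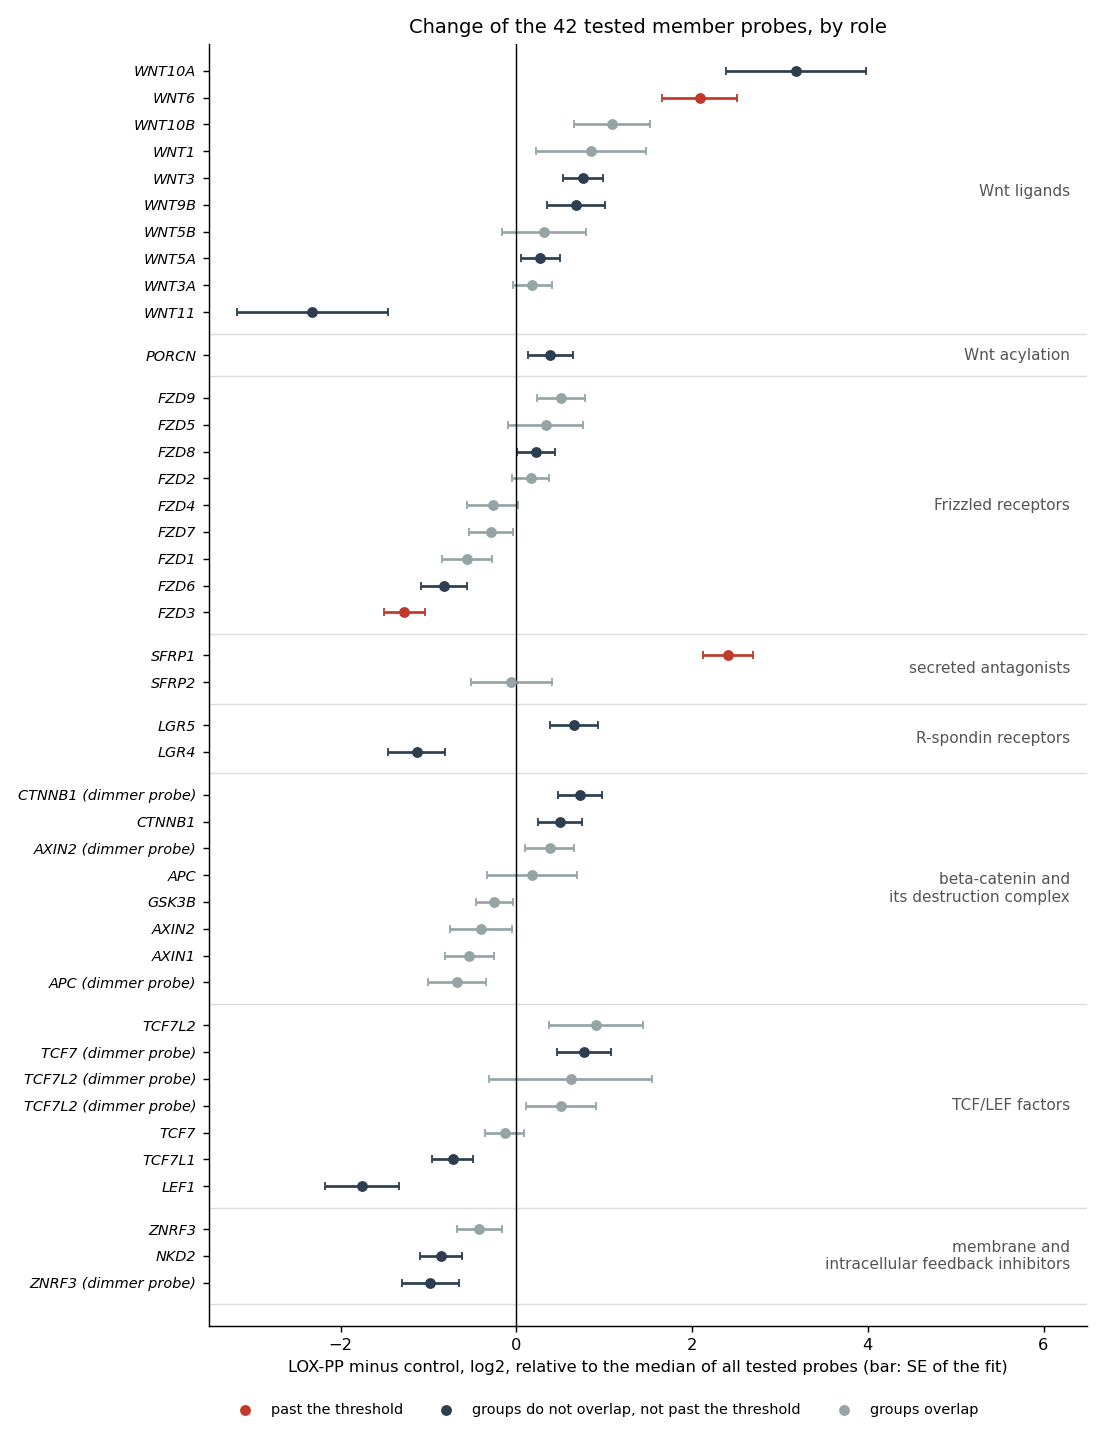
Change of the 42 tested member probes on the log2 scale, relative to the median of all tested probes, by role, with the SE of the fit as bars. The probes past the threshold, SFRP1 (2.41), WNT6 (2.09) and FZD3 (-1.27), are in red, and all tested ligands except WNT11 lie above 0.

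Among the ligands, 9 of the 10 tested genes lay above the median of all probes and 1 below, with a median of 0.72, but only WNT6 passed the threshold. This split of 9 and 1 was the same under each other scaling and background correction tried, and 8 and 2 without LOX-PP replicate 3. Among probes well above background on all arrays, 6 ligands lay above the median and 0 below. The median change of all probes was 0.07 with that filter and 0.30 without a filter, so it was higher with dim probes included. Several ligand probes were dim, and whether this had a part in the split was not tested. WNT6 is a canonical-type ligand known from epithelial and kidney tubule development. Its level was -3.32, -3.63 and -2.14 for control replicates 1 to 3 and -1.23, -0.73 and -0.48 for those of LOX-PP. All 3 LOX-PP arrays were above all 3 control arrays, replicate 3 being the highest control. WNT6 rose by 2.09 (4.25-fold, SE 0.43, adjusted p = 0.0322), and on slide 1 alone by 2.26 (adjusted p = 0.0413). The call was lost without replicate 1 of the controls (1.96, adjusted p = 0.155), without their replicate 2 (1.85, 0.136), and without replicate 2 (2.12, 0.0901) or replicate 3 (1.92, 0.0913) of LOX-PP.

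WNT10A, a ligand of tooth and hair development, showed the largest change of any tested member. Its level was -4.54, -4.71 and -1.70 for control replicates 1 to 3 and 0.10, -0.22 and -0.88 for those of LOX-PP. The groups did not overlap, and control replicate 3 lay closer to the LOX-PP arrays than to the other controls. The change of 3.19 (SE 0.80) did not pass the threshold (adjusted p = 0.0632), whereas without control replicate 3 it was 4.10 (adjusted p = 0.00409). It also passed with normexp background correction (2.64) and among the probes above background on all arrays (3.25).

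WNT6 and WNT10A are adjacent protein-coding genes of chromosome 2, where the median change of the named probes was -0.22. The 5 protein-coding genes on each side of them were examined after these values had been seen. Of the 9 with a tested probe, 5 lay above and 4 below the median of all probes, from -0.87 to 2.53, and FEV alone passed the threshold. FEV, which encodes an ETS transcription factor and lies beyond CDK5R2 from WNT10A, had levels of -1.42, -1.82 and -1.61 for the controls and of 1.01, 1.28 and 0.82 for LOX-PP. FEV rose without overlap by 2.53 (SE 0.23, adjusted p = 0.00218). CDK5R2, between FEV and WNT10A, had a change of -0.09 (adjusted p = 0.954), and PRKAG3, next to WNT6, of 0.19 (adjusted p = 0.485). FEV and WNT6 thus rose past the threshold and WNT10A rose without passing it, while the genes directly next to the Wnt pair changed little. CFAP65, further along beyond FEV, had a change of 1.22 and did not pass (adjusted p = 0.159).

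**Figure D2:**
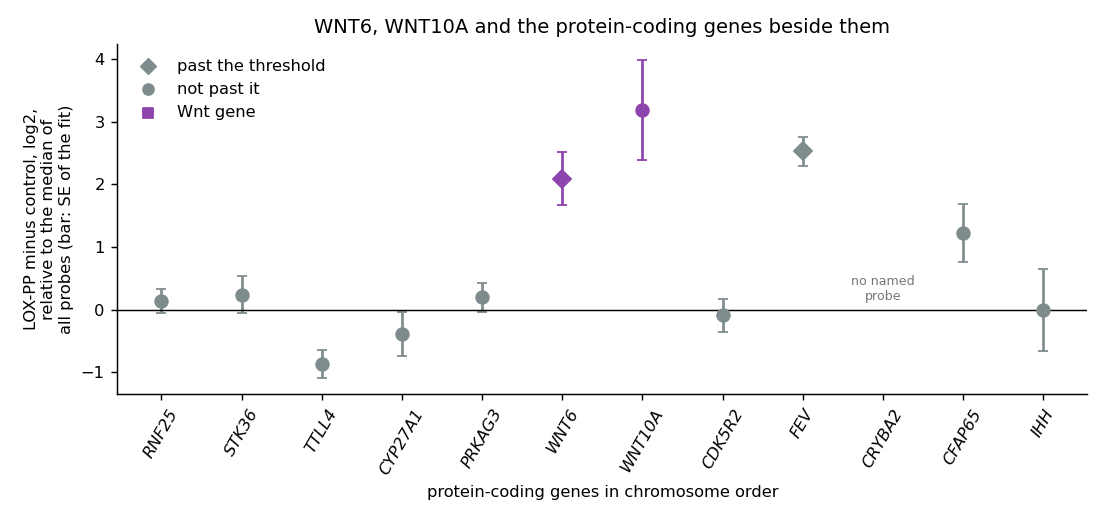
Change (log2, relative to the median of all tested probes, bars SE of the fit) of WNT6, WNT10A and the 5 protein-coding genes on each side, in chromosome order without distances. WNT6 (2.09), WNT10A (3.19) and FEV (2.53) stand above the rest, CRYBA2 has no named probe, and diamonds mark genes past the threshold.

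The 2 other pairs of ligands that are adjacent protein-coding genes were examined too, but without the genes beside them. On chromosome 17, WNT3 was at -1.22, -1.00 and -1.13 on the control arrays and at 0.02, -0.19 and -0.51 on the LOX-PP arrays, without overlap (change 0.76, adjusted p = 0.0744). Its neighbour WNT9B, well above background on 2 control arrays and 1 LOX-PP array, had a change of 0.68 (adjusted p = 0.226), also without overlap. On chromosome 12, WNT10B had a change of 1.09 (adjusted p = 0.169), which rose to 1.51 and passed without control replicate 3 (adjusted p = 0.0319), and WNT1 had a change of 0.85 (adjusted p = 0.417), both with overlapping groups. WNT1 was well above background on 1 control array and 3 LOX-PP arrays. Its other probe, above background on 1 control array alone, was not tested, and its mean was -5.02 on the control and -5.27 on the LOX-PP arrays. All 6 genes of the 3 pairs lay above the median of all probes, with changes from 0.68 to 3.19. The other tested ligands, WNT5B, WNT5A, WNT3A and WNT11, had lower changes (0.31, 0.27, 0.18 and -2.32). The pairs were examined after values had been seen, and this difference was not tested.

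WNT11 was the only tested ligand below that median. Its level was -1.64, -2.04 and -2.86 for control replicates 1 to 3 and -3.75, -2.97 and -6.41 for those of LOX-PP, of which 2 were well above background. No array of either group lay within the other, but the LOX-PP arrays spread over more than 3 log2 units, and the change of -2.32 (SE 0.86) did not pass the threshold (adjusted p = 0.203). With a common floor under all arrays it was -1.24.

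WNT5A and WNT5B, ligands of the branch without beta-catenin, gave no call. WNT5A was at 1.21, 1.51 and 1.00 on the control arrays and at 1.70, 1.62 and 1.60 on the LOX-PP arrays. All LOX-PP arrays were higher, by little (change 0.27, 95% confidence interval from -0.25 to 0.80, adjusted p = 0.348). WNT5B was at -4.72, -4.93 and -3.66 on the control arrays and at -4.82, -3.81 and -3.36 on the LOX-PP arrays, of which 2 were well above background. These groups overlapped (change 0.31, 95% confidence interval from -0.83 to 1.45, adjusted p = 0.649). PORCN, which acts on all Wnt proteins before secretion, had a change of 0.39 (adjusted p = 0.291).

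**Figure D3:**
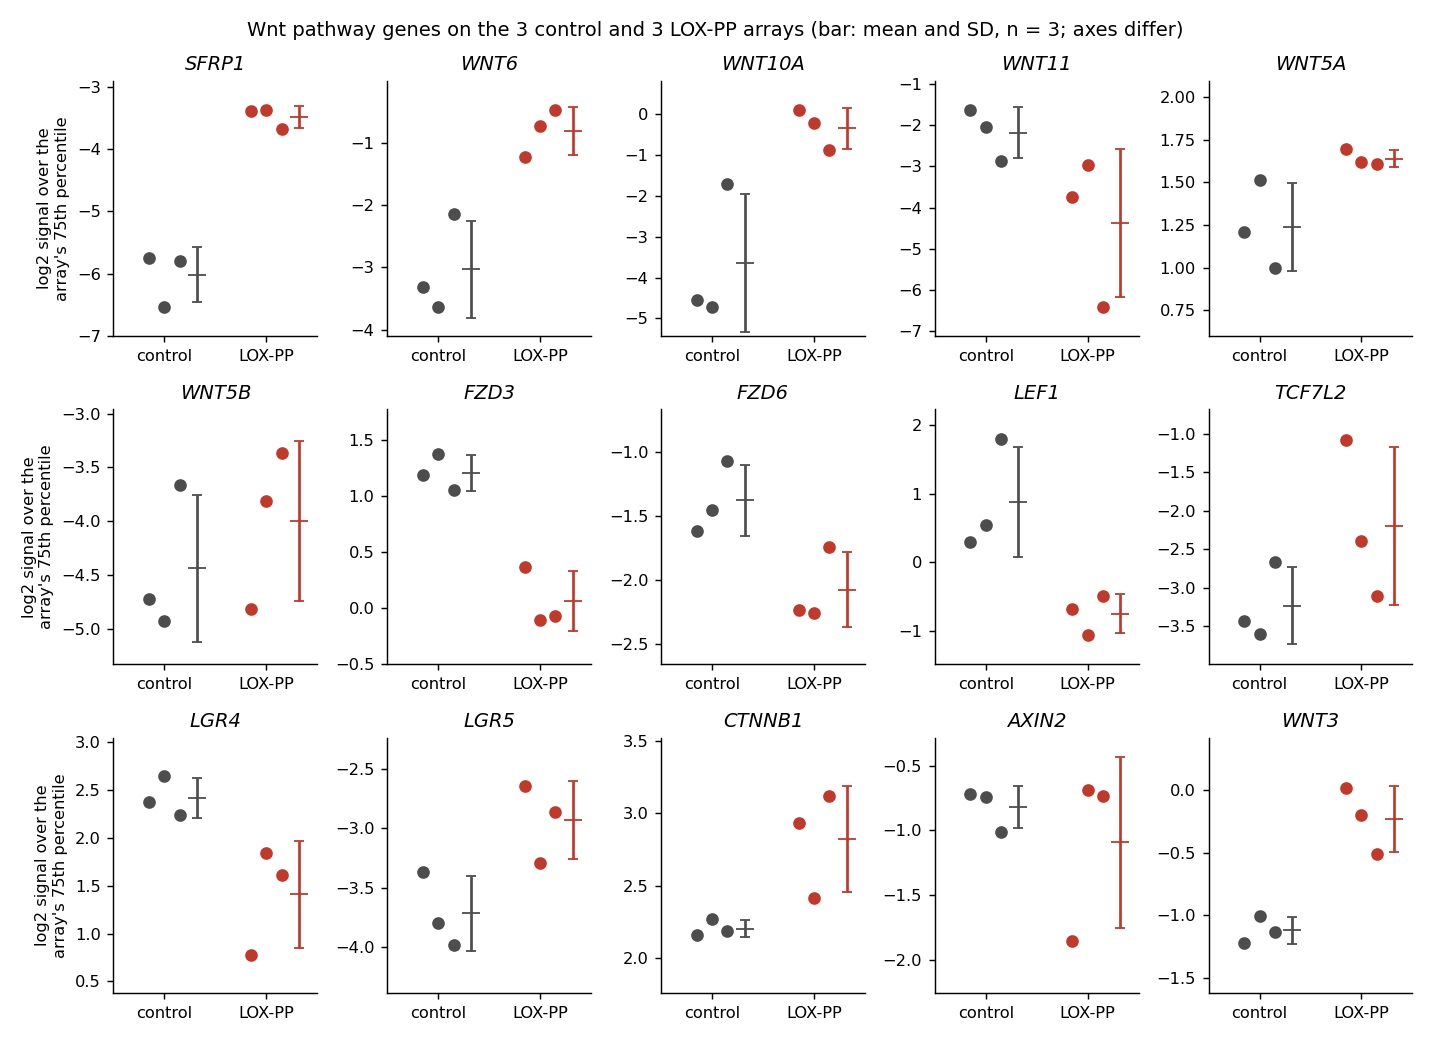
Level of 15 member genes (brightest probe, log2 signal over the 75th percentile of the array) on each of the 3 control (grey) and 3 LOX-PP (red) arrays, with mean and SD beside them. Vertical axes differ, and the gap between groups is widest relative to the spread for SFRP1 and FZD3, while control replicate 3 stands apart for WNT10A and LEF1.

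Among the Frizzled receptors, 4 of the 9 tested genes lay above the median of all probes and 5 below, with a median of -0.27. FZD3, a receptor known from axon guidance, was at 1.19, 1.38 and 1.06 on the control arrays and at 0.37, -0.11 and -0.08 on the LOX-PP arrays. Every LOX-PP array was below every control array, and FZD3 fell by 1.27 on the log2 scale (2.42-fold, SE 0.23, adjusted p = 0.0381). On slide 1 alone the change was -1.46 (adjusted p = 0.0253). The call was lost without any 1 of the 3 control arrays or of replicates 2 and 3 of LOX-PP, where the adjusted p was 0.186, 0.181, 0.0785, 0.0996 and 0.0941 and the change stayed between -1.42 and -1.11.

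FZD6, a planar polarity receptor, was at -1.61, -1.46 and -1.07 on the control arrays and at -2.23, -2.26 and -1.74 on the LOX-PP arrays. Here too all LOX-PP arrays were lower, but the change of -0.83 (SE 0.26) did not pass the threshold (adjusted p = 0.183). Both genes lie on chromosome 8, whose 720 named and tested probes had a median change of -0.39, and whether this shift had a part in these values was not tested. The other 7 tested receptors, FZD1, FZD2, FZD4, FZD5, FZD7, FZD8 and FZD9, had changes from -0.56 (FZD1) to 0.51 (FZD9), and none passed the threshold (adjusted p of at least 0.238).

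Of the secreted antagonists, SFRP1, which binds Wnt proteins through a Frizzled-like domain, was at -5.74, -6.53 and -5.79 on the control arrays and at -3.39, -3.38 and -3.68 on the LOX-PP arrays. It was well above background on 1 of 3 control arrays and on all 3 LOX-PP arrays. SFRP1 rose by 2.41 (SE 0.28, adjusted p = 0.00496), and on slide 1 alone by 2.33 (adjusted p = 0.0148). The call held in all 15 alternatives that gave a value, but its size was smaller with normexp background correction (1.27, adjusted p = 0.0267) and with a common floor (1.19, adjusted p = 0.0110). With 2 of 3 control signals not well above background, the size of this change is uncertain, and the filter that asks for signal on all arrays left the probe out. SFRP1 is also on chromosome 8, and its change was opposite to the median of that chromosome. SFRP2 had a change of -0.06, with overlapping groups (adjusted p = 0.951).

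The R-spondin receptors LGR4 and LGR5, which strengthen Wnt signals, moved in opposite directions without passing the threshold. LGR4 was at 2.37, 2.64 and 2.24 on the control arrays and at 0.78, 1.84 and 1.61 on the LOX-PP arrays, all of them lower (change -1.13, SE 0.32, adjusted p = 0.133). LGR5, a stem cell marker of the intestine and a Wnt target, was at -3.36, -3.80 and -3.98 on the control arrays and at -2.64, -3.29 and -2.87 on the LOX-PP arrays, all of them higher (change 0.65, SE 0.28, adjusted p = 0.165).

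CTNNB1, which encodes beta-catenin, was at 2.16, 2.27 and 2.19 on the control arrays and at 2.93, 2.42 and 3.12 on the LOX-PP arrays. There was no overlap, for this probe (change 0.50, 95% confidence interval from -0.10 to 1.09, adjusted p = 0.213) or for the dimmer one (change 0.73, adjusted p = 0.107). The level of mRNA does not give that of the protein, which is the regulated step.

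AXIN2, a scaffold of the destruction complex and a widely used readout of beta-catenin activity, had 2 probes for the same transcript that differed in sign. The brighter was at -0.71, -0.74 and -1.01 on the control arrays and at -1.86, -0.69 and -0.73 on the LOX-PP arrays (change -0.40, 95% confidence interval from -1.24 to 0.44, adjusted p = 0.709). Its low value came from replicate 1 of LOX-PP alone, and the other LOX-PP arrays were within or above the control range. The dimmer probe was at -2.05, -1.38 and -2.17 and at -1.44, -1.51 and -1.14 (change 0.38, adjusted p = 0.346). Neither direction was established for AXIN2. The 2 probes of APC, which match different transcripts, also differed in sign (0.18 and -0.67), and AXIN1 (-0.53) and GSK3B (-0.25), the kinase of the complex, did not pass the threshold.

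Among the TCF/LEF factors, LEF1, a DNA-binding partner of beta-catenin and itself a Wnt target, was at 0.30, 0.55 and 1.80 on the control arrays and at -0.69, -1.06 and -0.50 on the LOX-PP arrays. All LOX-PP arrays were below the control arrays, of which replicate 3 was the highest. The change of -1.76 (SE 0.42) did not pass the threshold (adjusted p = 0.0760), and it passed in 1 of 16 alternatives, among the probes above background on all arrays (-1.70, adjusted p = 0.0487). TCF7L1, which acts mainly as a repressor, had a change of -0.72 without overlap (adjusted p = 0.203).

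TCF7L2, the main TCF factor of the intestinal epithelium, was at -3.44, -3.60 and -2.66 on the control arrays and at -1.08, -2.40 and -3.10 on the LOX-PP arrays. The groups overlapped (change 0.91, SE 0.53, adjusted p = 0.314), and the remaining 2 probes of this gene lay above the median as well (0.51 and 0.62). TCF7 had 1 probe at -0.13 and 1 at 0.77, neither past the threshold.

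The feedback inhibitors NKD2, which binds Dishevelled, and ZNRF3, a ubiquitin ligase that removes Frizzled from the cell surface, lay below the median of all probes, with changes of -0.86 (NKD2, adjusted p = 0.139), -0.42 (brighter probe of ZNRF3, 0.563) and -0.98 (dimmer probe of ZNRF3, 0.192). RNF43, a close relative of ZNRF3, was well above background on 0 control arrays and 1 LOX-PP array, and was not tested. NKD1 was above background on 1 array of each group.

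The other genes of the pathway were followed through 3 further lists. Of 50 genes of canonical Wnt signalling, 47 had a tested probe, and 3 of 61 tested probes were higher and 2 lower, with a median of -0.12. FRZB, a secreted Frizzled-related antagonist in the same family as SFRP1, was at 1.09, 1.20 and 0.85 on the control arrays and at -2.99, -3.54 and -4.02 on the LOX-PP arrays, and fell by 4.69 (SE 0.31, adjusted p = 0.000905). It was well above background on 3 control arrays and 2 LOX-PP arrays, so the filter on all arrays left it out, and with normexp its change was -4.04. The groups did not overlap, and the call held in all 15 alternatives that gave a value, so that 2 antagonists of the same kind changed in opposite directions.

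TLE1 and TLE2, Groucho-type co-repressors that bind TCF/LEF factors, both rose, by 1.56 (adjusted p = 0.00832) and 2.13 (adjusted p = 0.00620). TLE2 was at -0.40, -1.00 and -0.53 on the control arrays and at 1.41, 1.49 and 1.94 on the LOX-PP arrays. Neither of these probes had overlapping groups, and TLE2 was called in all 16 alternatives. The called TLE1 probe lost the call without control replicate 1 or 2 (highest adjusted p 0.0730). The other TLE1 probes, both dimmer, were not called. Their changes were 0.54 without overlap (adjusted p = 0.211) and 1.08 with overlapping groups (adjusted p = 0.335). The other TLE genes of the list were not called and did not share a direction. The brightest TLE4 probe was lower without overlap (-1.08, adjusted p = 0.0952). Those of TLE3 (0.26, adjusted p = 0.542) and TLE5 (-0.23, adjusted p = 0.839) had overlapping groups.

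DACT3, a Dishevelled-binding inhibitor, rose by 1.43 (adjusted p = 0.0187), and was called in 8 of 16 alternatives. It lost the call without any control array or without replicate 2 or 3 of LOX-PP (highest adjusted p 0.112). DACT1, also in this list, was lower without overlap (-1.45) and lay just outside the threshold (adjusted p = 0.0505). RSPO2, an R-spondin ligand of LGR4 and LGR5, was well above background on 3 control arrays and 1 LOX-PP array. It fell by 2.86 (adjusted p = 0.0419), a call held in 7 of 15 alternatives. The call was lost without any control array or without LOX-PP replicate 1 (highest adjusted p 0.177). The change of RSPO2 was -1.89 with normexp and -2.405 with a common floor. RSPO2 also lies on chromosome 8. The brighter probe of RSPO3, another R-spondin, was well above background on all 6 arrays, with a change of 0.03 (adjusted p = 0.832). Its dimmer probe, above background on 2 control arrays and 0 LOX-PP arrays, was not tested.

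Of 21 planar polarity and non-canonical genes, 20 had a tested probe, and 1 of 27 probes was higher and 1 lower, with a median of -0.13. GPC4, a heparan sulphate proteoglycan at the cell surface, was at 2.59, 2.64 and 2.32 on the control arrays and at 0.11, 0.85 and 0.37 on the LOX-PP arrays, and fell by 2.20 (adjusted p = 0.00782). The groups did not overlap, and the call was lost without control replicate 1 or 2 and in the methods' t-test (highest adjusted p 0.0636). The higher probe was a dim one of CELSR1, an adhesion receptor of planar polarity (1.01, adjusted p = 0.0339), called in 5 of 15 alternatives. This probe lost the call without any control array or without replicate 2 or 3 of LOX-PP (highest adjusted p 0.180). It also lost the call with quantile normalization (0.71, adjusted p = 0.297) and normexp (0.76, adjusted p = 0.0691). The brightest CELSR1 probe had overlapping groups and was not called (0.54, adjusted p = 0.252). The remaining CELSR1 probes were not called either (0.67, adjusted p = 0.229, and 0.28, adjusted p = 0.796).

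Of 38 further textbook Wnt targets, 28 had a tested probe, and 1 of 37 probes was higher and 2 lower, with a median of -0.16. TIAM1, an exchange factor of the GTPase Rac, was at -4.07, -4.13 and -5.71 on the control arrays and at 0.89, 0.54 and 0.01 on the LOX-PP arrays. It was well above background on 2 control arrays and all LOX-PP arrays, and rose by 4.99 (SE 0.49, adjusted p = 0.00308). The call held in 14 of 15 alternatives, with a change of 3.66 with normexp, and was lost in the methods' t-test (adjusted p = 0.0518). NRCAM, a neuronal adhesion molecule (-1.99, adjusted p = 0.0171), and JAG1, a Notch ligand (-1.79, adjusted p = 0.0235), were lower. They were called in 10 and 9 of 16 alternatives. NRCAM and JAG1 lost the call without control replicate 1 or 2 or LOX-PP replicate 2, and JAG1 also without LOX-PP replicate 3 (highest adjusted p 0.0971 and 0.125). The shares of probes called in these 3 lists, 5 of 61, 2 of 27 and 3 of 37, are set here against 5.66% of all tested probes without a test.

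**Figure D4:**
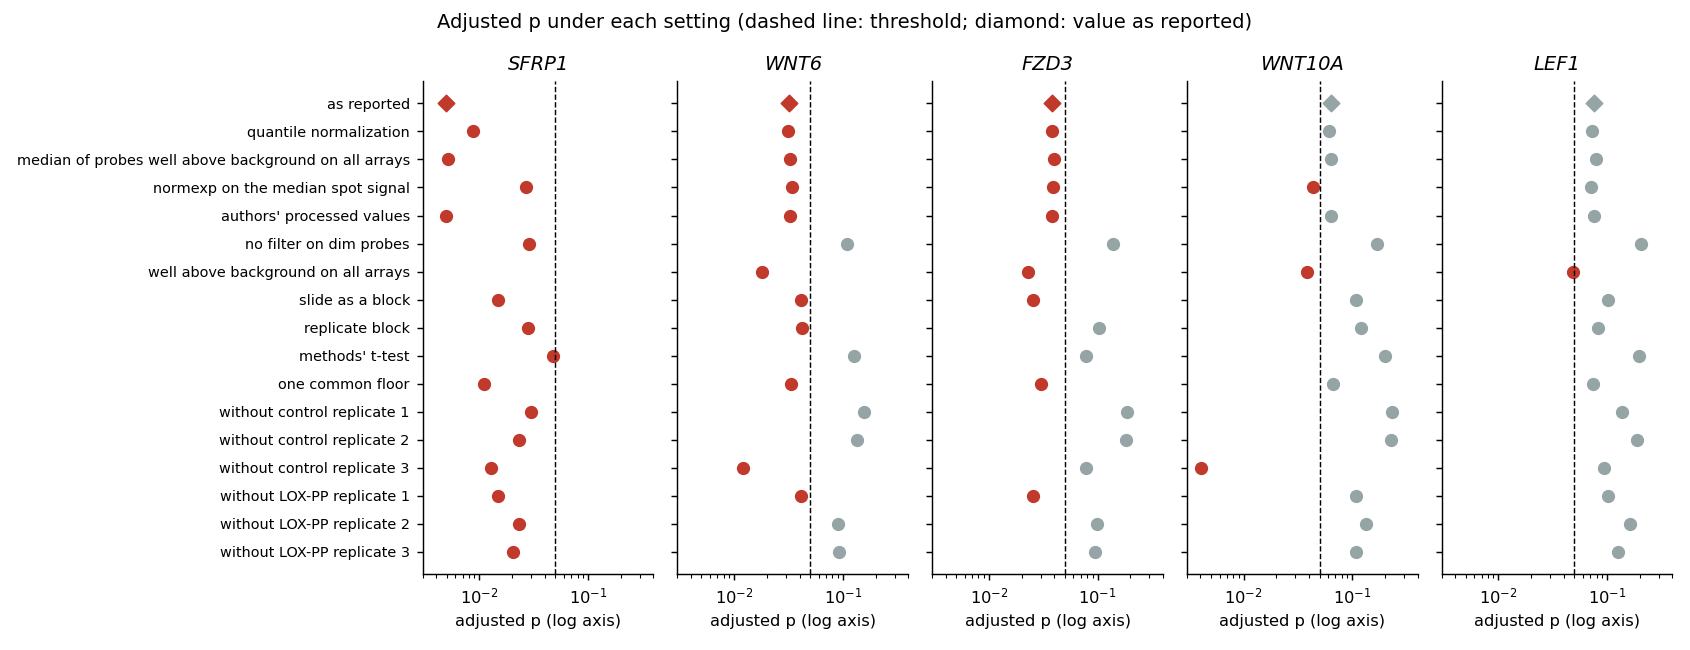
Adjusted p (log axis) of SFRP1, WNT6, FZD3, WNT10A and LEF1 as reported (diamond) and under each alternative (points), with the threshold of 0.05 as a dashed line and values under it in red. SFRP1 has values under the line in all settings that gave one, WNT6 in 10 and FZD3 in 8 of 16 alternatives, WNT10A in 3 and LEF1 in 1.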

How the data were processed

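RNA of 6 samples, 3 per group, was measured on Agilent arrays in 1 colour. The authors deposited the spot intensity of each array from Agilent Feature Extraction (version 10.7, per the submitters' processing notes), corrected for background, and a table of log2 values, which match the values used here to within 0.02 for nearly all probes once each probe is centred on its median. The normalization is not given in the sources used here.

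Without control and outlier spots, log2 values were averaged per probe and set relative to the array's own 75th percentile. Probes above background on 3 or more arrays were tested with limma 3.58.1 in R 4.3.3, without a block. An array of 50599 gene probes gave 28174 with a name, through a RefSeq table of a later assembly than the array design, used for names, chromosomes and gene order only. Each gene stands for its brightest probe, except where another probe is named. P-values set a difference against the spread between the samples within a group, and 3 arrays per group limit the precision. As the number of clones is not stated, whether this spread includes differences between clones is not known.

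Members and lists were chosen with earlier results of these data known. Values on all arrays are given for members past the threshold, for those without overlap and a change of at least 1, and for the core genes CTNNB1, AXIN2, LEF1, TCF7L2, LGR5, FZD3, FZD6, WNT5A and WNT5B, and of the other lists the genes past the threshold are named. An item of these lists is not reported here. Genes named for their position, for their number of probes or as relatives of a called gene were chosen after values were seen.

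Alternatives were quantile normalization, scaling to the median of probes above background, normexp (offset 50) on the median spot signal, as the files hold no mean spot signal, the authors' log2 values, 2 other filters, a common floor, the slide and the replicate number as blocks, the methods' t-test, and leaving out each array. LOX-PP replicate 1 was alone on its slide, so the slide as a block and leaving out that array were the same fit. They are counted separately among the alternatives. The authors' log2 values and the median scaling lay close to the main fit, with 1841 and 1853 probes called compared with 1849. The steps were tested on simulated data.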

Additional observations from a re-analysis of the deposited data

How the results depend on the processing

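Of the 3 member calls, SFRP1 held in every alternative that gave a value, and the stricter filter, which asks for signal on all 6 arrays, left it out. Without a filter on dim probes 1 member probe and 516 probes of the whole array passed the threshold, compared with 3 and 1849, and in the methods' t-test 1 and 566 (6430 before adjustment, compared with 6954 in limma). With the replicate number as a block 860 probes passed and the call of FZD3 was lost (adjusted p = 0.104). The correlations of the deviations of same-numbered samples were 0.267, -0.390 and 0.227. As these are deviations from means of 3 arrays, they cannot decide whether the numbers pair the samples. Leaving out 1 array gave from 1 to 4 member probes and from 407 (without control replicate 1) to 2062 (without LOX-PP replicate 1) probes. Of the members and other genes followed, 7 probes reversed, none of them called in any setting. SFRP2 did so with normexp (0.031), the filter on all arrays (0.001) and the slide as a block (0.289), GSK3B with quantile normalization (0.025), FZD2 without a filter (-0.015), and the brighter APC probe (-0.433) and a TCF7L2 probe (-0.416) with the slide as a block. With 1 array left out, SFRP2 ranged from -0.476 to 0.289, APC from -0.433 to 0.508, TCF7L2 from -0.416 to 1.471, FZD4 from -0.583 to 0.020 and WNT5B from -0.005 to 0.687. Quantile normalization moved the split of all calls to 908 higher and 983 lower, compared with 1080 and 769, and kept the same 3 member calls. The causes were not tested. Probes near background, among them SFRP1, WNT1, WNT9B, WNT5B, FRZB, TIAM1 and RSPO2, limit what the size of a change can show.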
